A study of Mus musculus with 13 samples.

Results

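The second-messenger enzymes and kinases described here are the listed probe sets whose single gene symbol belongs to the phosphodiesterase (Pde), adenylyl cyclase (Adcy), protein kinase A and AMP-activated kinase subunit (Prka), protein kinase C (Prkc), A-kinase anchoring protein (Akap), calcium/calmodulin-dependent kinase (Camk), phospholipase C (Plc), diacylglycerol kinase (Dgk), inositol trisphosphate and ryanodine receptor (Itpr, Ryr), phosphoinositide 3-kinase (Pik3) or calcium pump (Atp2a, Atp2b) families. They were chosen by symbol alone and comprise 74 probe sets of 45 genes, out of 4423 probe sets in the authors' deposited table. A further 1 row carried several symbols and was left out. A probe set is the group of short array oligonucleotides that reports 1 transcript. The symbol pattern also takes in proteins that sit beside these families, among them Camk2n1, an inhibitor of CaMKII, Itpripl2, which resembles a protein that binds the inositol trisphosphate receptor, and the AMP-activated kinase subunits Prkaa2 and Prkab2, which sense cellular energy rather than cAMP.

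RNA came from the striatum of 13 naive male mice on the C57Bl/6J background, 1 array per mouse. There were 4 wild type littermates (WT), 5 heterozygotes carrying 1 mutant allele (STEP +/-) and 4 homozygous knockouts (STEP -/-). STEP, short for striatal-enriched tyrosine phosphatase, is the product of Ptpn5, and the design asks how transcripts differ when 1 or both copies are lost. The labels name no Cre, cell-restricted promoter or age of the mice. In tissue RNA, fewer cells of a type and less RNA per cell cannot be told apart.

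Second messengers carry signals from receptors at the cell surface to enzymes inside the cell. Adenylyl cyclases make cAMP, which activates protein kinase A held in place by anchoring proteins, and phosphodiesterases end the signal. Phospholipase C splits a membrane lipid into inositol trisphosphate, which releases stored calcium, and diacylglycerol, which activates protein kinase C until a diacylglycerol kinase converts it. Calcium binds calmodulin and so activates the CaM kinases, while pumps return it to the stores or out of the cell. In striatal projection neurons dopamine and glutamate act through these routes, and protein kinase A is known to phosphorylate STEP and lower its activity.

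Because cAMP can act on promoters through the transcription factor CREB, the stretch before the start of the member genes was searched for its binding letters. The full element TGACGTCA was found in 0 of 56 member windows of 250 bases before a start site (35 of the 45 genes), against 1.55% of all 32851 windows. Its shorter core TGACG, or CGTCA on the other strand, was found in 12 member windows (21.4%), against 17.8% of all windows. The full element holds that core on both strands. A match is a description of letters only. The 5 stretches printed here belong to 1 gene from each of 5 roles described further on (cAMP synthesis, cAMP breakdown, kinase A regulation, calcium and lipid signalling). They are RefSeq sequences of build GRCm38.p6 in the gene's own direction, with the core in capitals.
Adcy9, chr16:4420500-4420540, minus strand: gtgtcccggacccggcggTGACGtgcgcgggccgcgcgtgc
Pde4a, chr9:21184033-21184073, plus strand: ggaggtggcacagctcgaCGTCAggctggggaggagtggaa
Prkar1b, chr5:139150028-139150068, minus strand: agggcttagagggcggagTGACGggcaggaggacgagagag
Camk1, chr6:113344085-113344125, minus strand: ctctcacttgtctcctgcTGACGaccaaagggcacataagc
Pik3r1, chr13:101692643-101692683, minus strand: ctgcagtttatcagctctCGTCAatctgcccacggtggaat

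Ptpn5 itself was highest in the wild type and lowest in the homozygous arrays. The intensity of the first probe set (1425130_a_at) was 1649 ± 217 (SD, n = 4) in wild type, 1028 ± 231 (SD, n = 5) in heterozygous and 485.7 ± 105 (SD, n = 4) in homozygous arrays. That of the second (1423544_at) was 3527 ± 276, 2503 ± 496 and 1262 ± 232 in the same order. The 3 groups did not overlap. For homozygous against wild type p was 0.0286 by an exact two-sided permutation test, the smallest that 70 splits allow. It was 0.0159 for each pair with the heterozygotes, the smallest that 126 splits allow, and Benjamini-Hochberg adjusted values of 0.0286 and 0.0238 over 3 pairs. No source used here says whether these probe sets lie inside the deletion. Groups follow the label of each sample. The column headings of the deposited table of 4423 rows go against those labels, since the columns headed HOM hold the intensities of the wild type samples and those headed WT hold those of the homozygous samples, in 4423 of 4423 rows to within rounding. The authors' deposited folds follow the sample labels, with all 1027 homozygous folds and 3872 of 3874 heterozygous folds within 0.05 log2 of mutant minus wild type. A reading by column heading would turn every wild type to homozygous direction given here.

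Median intensity over all 45101 probe sets ran from 143 in homozygous array 1 to 201 in homozygous array 2, and heterozygous arrays 1 and 3 (187 and 198) were also bright. These 4 arrays stand apart in overall brightness, so single differences are given on the deposited scale, and the medians of role groups also after quantile normalization, which gives every array the same distribution. Quantile normalization moved the 74 members' differences by -0.20 to -0.05 log2 for heterozygous against wild type (median -0.17). The shift was -0.12 to -0.07 for homozygous against wild type (median -0.11) and -0.01 to 0.08 for homozygous against heterozygous (median 0.07). Of 18 marker genes of cortical excitatory neurons, 8 were listed. Their summed intensity was 2393 to 7070 in wild type, 7011 to 14517 in heterozygous and 3061 to 7696 in homozygous arrays, with no marker at 0. Their 10 probe sets differed by -1.43 to 0.36 log2 between homozygous and heterozygous arrays, 3 of them above 0. Of 20 markers of striatal projection neurons only Arpp21 was listed, so the tissue label could not be checked further. Its summed intensity was 3051 to 3755 in wild type, 3617 to 5408 in heterozygous and 3413 to 4092 in homozygous arrays. The 5 listed of 9 interneuron markers summed to 6633 to 9089, 9355 to 14515 and 6954 to 9495 in the same order. The 2 listed of 10 astrocyte markers summed to 1083 to 1297, 1237 to 1449 and 835 to 1543. They went opposite ways, by -0.47 and 0.20 log2 for homozygous and -0.15 and 0.41 for heterozygous against wild type. Tagln, the 1 listed marker of the endothelium and pericyte list, was at 156 to 253 in wild type, 202 to 305 in heterozygous and 310 to 635 in homozygous arrays. Itgam, the 1 listed of 8 microglia markers, was at 93 to 126, 120 to 157 and 140 to 169 in the same order. Alas2, the 1 listed of 3 red blood cell markers, was at 87 to 782, 113 to 230 and 88 to 135, with 782 in wild type array 2. The part of these markers in the member values was not tested.

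The deposited table lists probe sets that passed a raw p under 0.05 with a fold of at least 1.2 in the authors' heterozygous or homozygous comparison, as its values show. Of the 74 member probe sets, 58 (78.4%) entered through the heterozygous comparison alone, 10 (13.5%) through the homozygous comparison alone and 6 (8.11%) through both. For all other rows these shares were 76.8%, 12.4% and 10.9%. In the authors' deposited table all 64 heterozygous folds of members were positive, as were 14 of 16 homozygous folds, the exceptions being Adcy1 and Dgkg. The members just inside the thresholds had deposited folds of 1.2 (heterozygous) and 1.26 (homozygous) and raw p of 0.0489 and 0.0497. The table was selected on the same mice, so a count of members that differ from wild type is read here against the same count for the other 4349 rows.

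No member passed the array-wide test (limma, Benjamini-Hochberg over 45101 probe sets) between any pair of genotypes. The smallest adjusted p was 0.287 for heterozygous against wild type, 0.413 for homozygous against heterozygous and 0.909 for homozygous against wild type. In the whole array 4 probe sets passed for homozygous against wild type (0.00887%, or 0.092% of the other rows), both of Ptpn5 and those of Tlr4 and Tmem114. For heterozygous against wild type only Tlr4 passed (0.00222%, or 0.023%), and for homozygous against heterozygous those of Ptpn5 and Sult2b1 (0.00665%, or 0.069%). Leaving out single arrays ended the last of these calls for Ptpn5. Its limma adjusted p for homozygous against heterozygous was 0.0554 to 0.0688 for 1425130_a_at without heterozygous array 1 or 3 or homozygous array 1 or 4, and 0.0524 for 1423544_at without homozygous array 4. Over all alternatives these adjusted p ran from 0.000359 to 0.212 and from 6.53e-05 to 0.115.

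Array weights changed the member counts. Weights estimated with the genotypes gave homozygous array 3 a weight of 12 and the other arrays 0.209 to 2.90, so that 1 array stood for most of its group. With them 20 members passed for homozygous against wild type (14 higher, 6 lower), which is 27.0% against 29.7% of the other rows and 18.6% of the array. For homozygous against heterozygous 25 passed (5 higher, 20 lower), or 33.8% against 30.2% of the other rows and 12.6% of the array. With weights estimated without the genotypes, which had been run first, 0 members passed in any pair.

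All 45 genes had higher means in heterozygous than in wild type arrays, as did nearly all other rows of the table, with no member past the array-wide test. The median log2 difference was 0.36 over the 74 members, 0.31 over the other rows and 0.12 over the whole array. All 74 differences were above 0, as were 98.1% of the other rows and 81.5% of the array. At an unadjusted p under 0.05, 63 members (85.1%) were higher and 0 lower, against 83.7% and 0.552% of the other rows and 10.8% and 0.153% of the array. The 2 groups did not overlap for 16 members (21.6%), all higher, against 27.6% of the other rows (0.161% lower) and 6.54% of the array (0.0621% lower). The members' shares thus lie near those of the rest of the table. After quantile normalization the members' median was 0.19, that of the other rows 0.17 and that of the array -0.01. Members at an unadjusted p under 0.05 then numbered 24 (32.4%), against 32.5% of the other rows and 7.54% of the array, and 71 members were above 0.

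For homozygous against wild type, the median log2 difference was 0.20 over the members, 0.19 over the other rows and 0.09 over the array, and 67 members (90.5%) were above 0, against 95.0% of the other rows and 81.6% of the array. At an unadjusted p under 0.05, 14 members (18.9%) were higher and 2 (2.70%) lower, against 20.8% and 1.31% of the other rows and 2.81% and 0.208% of the array. The groups did not overlap for 3 members that were higher, Akap13 and Camk1g among them, and 1 that was lower (Dgkg), which is 4.05% and 1.35%. The same shares were 8.42% and 0.345% of the other rows and 1.30% and 0.0732% of the array. After quantile normalization the medians were 0.09 for members, 0.09 for other rows and -0.001 for the array, and 56 members were above 0. At an unadjusted p under 0.05 there were then 11 members (14.9%), against 17.9% of the other rows and 4.59% of the array.

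Between homozygous and heterozygous arrays, a pair of genotypes that the deposited table does not compare, the median was -0.19 for members, -0.14 for other rows and -0.03 for the array. Only 9 members (12.2%) were above 0, against 16.2% of the other rows and 37.7% of the array. At an unadjusted p under 0.05, 18 members (24.3%) were lower and 2 (2.70%) higher in homozygous arrays, against 14.3% and 1.86% of the other rows and 2.05% and 0.614% of the array. The groups did not overlap for 4 members, all lower in homozygous arrays (5.41%), against 2.35% of the other rows (0.184% higher) and 0.386% of the array (0.0887% higher). These 4 were Adcy1, Adcy9 and 2 probe sets of Dgkg. The table was chosen through the same heterozygous arrays, so the direction of this pair is partly fixed by that choice. After quantile normalization the medians were -0.13 for members, -0.09 for other rows and 0.002 for the array, with 12 members above 0. At an unadjusted p under 0.05 there were then 23 members (31.1%), against 17.0% of the other rows and 5.15% of the array.

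**Figure D1:**
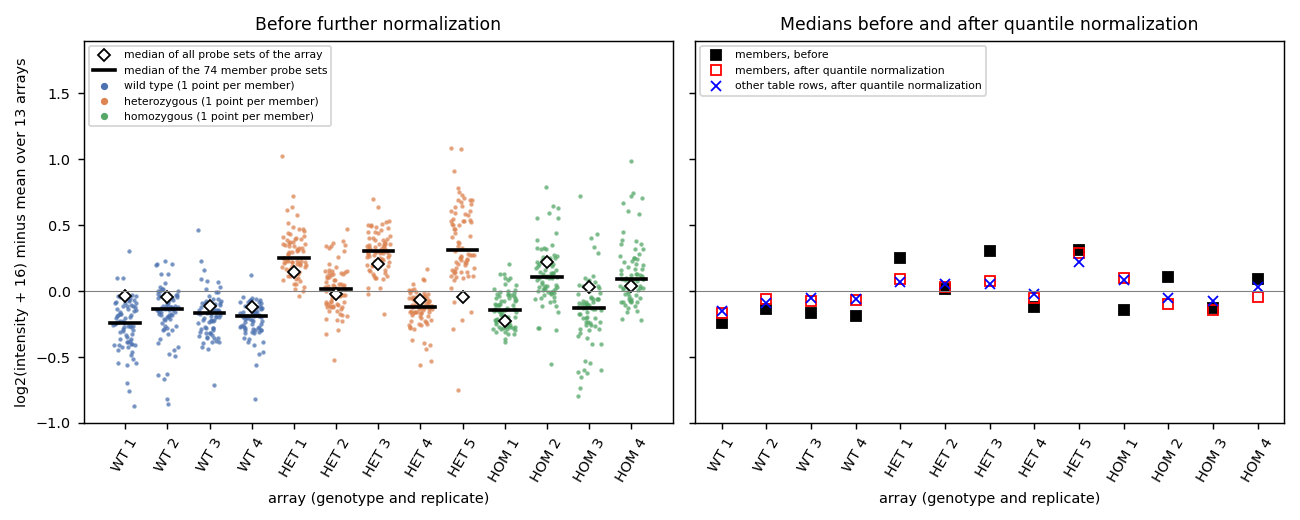
Left, log2(intensity + 16) of each of the 74 member probe sets (points) in each of the 13 arrays, relative to its mean over the arrays, with the median of the members (bar) and of all probe sets of the array (diamond). Right, the medians of the members before and after quantile normalization, and those of the other table rows after it. Before normalization members lie high in heterozygous arrays 1, 3 and 5 and near or below 0 in heterozygous array 4. After it heterozygous array 5 keeps a high median (0.29), and heterozygous arrays 1 and 3 fall to 0.09 and 0.08.

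The plot of members by array shows that the heterozygotes were not uniform. The median member deviation from the mean of all arrays was 0.25, 0.02, 0.30, -0.12 and 0.32 log2 in heterozygous arrays 1 to 5. It was -0.24 to -0.14 in the 4 wild type arrays and -0.15 to 0.11 in the 4 homozygous arrays. After quantile normalization the median was 0.09, 0.03, 0.08, -0.05 and 0.29 in heterozygous arrays 1 to 5. It was then -0.16 to -0.06 in wild type and -0.14 to 0.10 in homozygous arrays. Homozygous array 1 turned from -0.15 to 0.10 and homozygous array 2 from 0.11 to -0.10. Heterozygous array 4 thus lay near the wild type arrays. Without it, 8 members passed the array-wide limma test for heterozygous against wild type, all higher (10.8%), against 195 of the other rows (4.48%) and 213 probe sets of the array (0.472%). That difference in share was not tested, and both sets of rows were chosen through the same heterozygous arrays. Among the 8 members were probe sets of Atp2b4, Camk2a, Camk2d, Dgkg and Ryr2 and both of Dgkz.

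Among the cyclases, which make cAMP, no gene passed the test, and the 8 probe sets of 5 genes had a median log2 difference of 0.26 for heterozygous and 0.09 for homozygous against wild type. After quantile normalization these medians were 0.07 and -0.02, and 4 of the 8 homozygous differences from wild type were above 0 instead of 6. Adcy1, a calcium/calmodulin-stimulated cyclase, had intensities of 272, 379, 330.4 and 357 in wild type arrays 1 to 4. They were 352, 407, 332, 369 and 471 in heterozygous arrays 1 to 5 and 305, 218, 219 and 326 in homozygous arrays 1 to 4. Every heterozygous value lay above every homozygous one, and the wild type values overlapped both groups. The log2 difference was -0.52 ± 0.14 (SE) for homozygous against heterozygous (limma adjusted p = 0.858) and -0.32 ± 0.15 for homozygous against wild type (limma adjusted p = 0.909), or -0.47 and -0.43 after quantile normalization. Adcy9, a cyclase that calcium/calmodulin does not stimulate, was the only 1 of 17 genes with several listed probe sets whose probe sets disagreed in sign. For homozygous against wild type they differed by 0.001, 0.04 and -0.04 log2, and by -0.12, -0.08 and -0.16 after quantile normalization. For 1418586_at every heterozygous value (1462 to 1752) lay above every wild type (1188 to 1374) and homozygous (1163 to 1404) value, a difference of -0.28 ± 0.11 between homozygous and heterozygous (limma adjusted p = 1). For 1434454_at and 1449620_s_at the heterozygous values overlapped those of both other groups. Heterozygous values lay above all wild type ones for 27.6% of the other rows, and above all homozygous ones for 2.35%. Adcy7, another cyclase, had 103, 109, 144 and 82.0 in wild type and 134, 155, 103 and 192 in homozygous arrays for 1456307_s_at. The groups overlapped, and the difference of 0.36 ± 0.17 became 0.23 without homozygous array 4.

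Phosphodiesterases, which break down cyclic nucleotides, had 9 probe sets of 5 genes, with medians of 0.31 for heterozygous and 0.22 for homozygous against wild type (0.13 and 0.12 after quantile normalization) and 0 calls. Pde9a, which hydrolyses cGMP, had intensities of 282, 227, 294 and 283 in wild type arrays, 349, 299.9, 415, 277 and 308 in heterozygous and 293, 501, 416 and 392 in homozygous arrays. Homozygous arrays 2, 3 and 4 lay above all wild type arrays, and array 1 among them. It differed by 0.52 ± 0.15 log2 for homozygous against wild type (limma adjusted p = 0.909). Against the heterozygotes it differed by 0.26, or 0.15 without homozygous array 2 and 0.39 without homozygous array 1.

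Pde1c, a phosphodiesterase stimulated by calcium/calmodulin, had 119, 74.3, 105 and 94.6 in wild type, 109.9, 108, 122, 117 and 59.0 in heterozygous and 101, 179, 191 and 103 in homozygous arrays (1444386_at). Homozygous arrays 2 and 3 were the highest, and the groups overlapped. Its 2 probe sets differed by 0.45 ± 0.20 and 0.33 ± 0.16 log2 between homozygous and wild type. Against the heterozygotes they differed by 0.40 and 0.28, with 0.24 for the first without heterozygous array 5 and 0.14 for the second without homozygous array 2. Their differences for heterozygous against wild type, 0.05 for both, turned to -0.04 and -0.02 after quantile normalization. All 4 probe sets of Pde7a, a cAMP-specific phosphodiesterase, differed by 0.26 to 0.42 between heterozygous and wild type arrays, and Pde4a, another of that kind, by 0.38 ± 0.13 (limma adjusted p = 0.346). After quantile normalization these were 0.11 to 0.26 and 0.21.

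Protein kinase A regulatory and AMP-activated kinase subunits had 6 probe sets of 4 genes, with a median of 0.39 for heterozygous and 0.24 for homozygous against wild type, or 0.21 and 0.13 after quantile normalization. Prkar1b, a regulatory subunit of protein kinase A that is abundant in brain, had 3505, 4297, 4045 and 3603 in wild type, 5325, 4513, 4842, 4121 and 6483 in heterozygous and 4472, 4889, 3864 and 4785 in homozygous arrays (1416753_at). Heterozygous array 4 lay within the wild type range and the others above it. The 3 probe sets differed by 0.37, 0.40 and 0.43 for heterozygous against wild type (limma adjusted p = 0.322, 0.402 and 0.311) and by 0.22, 0.33 and 0.24 for homozygous against wild type. Prkaa2, a catalytic AMP-activated kinase subunit, did not overlap between heterozygous and wild type arrays (0.44 ± 0.13, limma adjusted p = 0.311). The gap was narrow, 796.29 against 790.69, and 27.6% of the other rows did not overlap in the same direction.

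Anchoring proteins had 3 genes with 1 probe set each, with medians of 0.27 for heterozygous and 0.24 for homozygous against wild type (0.12 and 0.17 after quantile normalization). Akap13, an anchor of protein kinase A, had 385, 434, 473 and 432 in wild type, 570.2, 431, 533, 438 and 602 in heterozygous and 493, 604, 544 and 644 in homozygous arrays. Homozygous values all lay above wild type ones, and the difference was 0.39 ± 0.13 log2 (limma adjusted p = 0.909). Against the heterozygotes it was 0.15, or 0.09 without heterozygous array 2. Akap13 lies on chromosome 7, as does Ptpn5, with 97 annotated protein-coding genes between them. Itpripl2 is on the same chromosome, with 646 annotated protein-coding genes between it and Ptpn5. Akap7, an anchor found at the plasma membrane, differed by -0.23 ± 0.12 between homozygous and heterozygous arrays (limma adjusted p = 1).

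**Figure D2:**
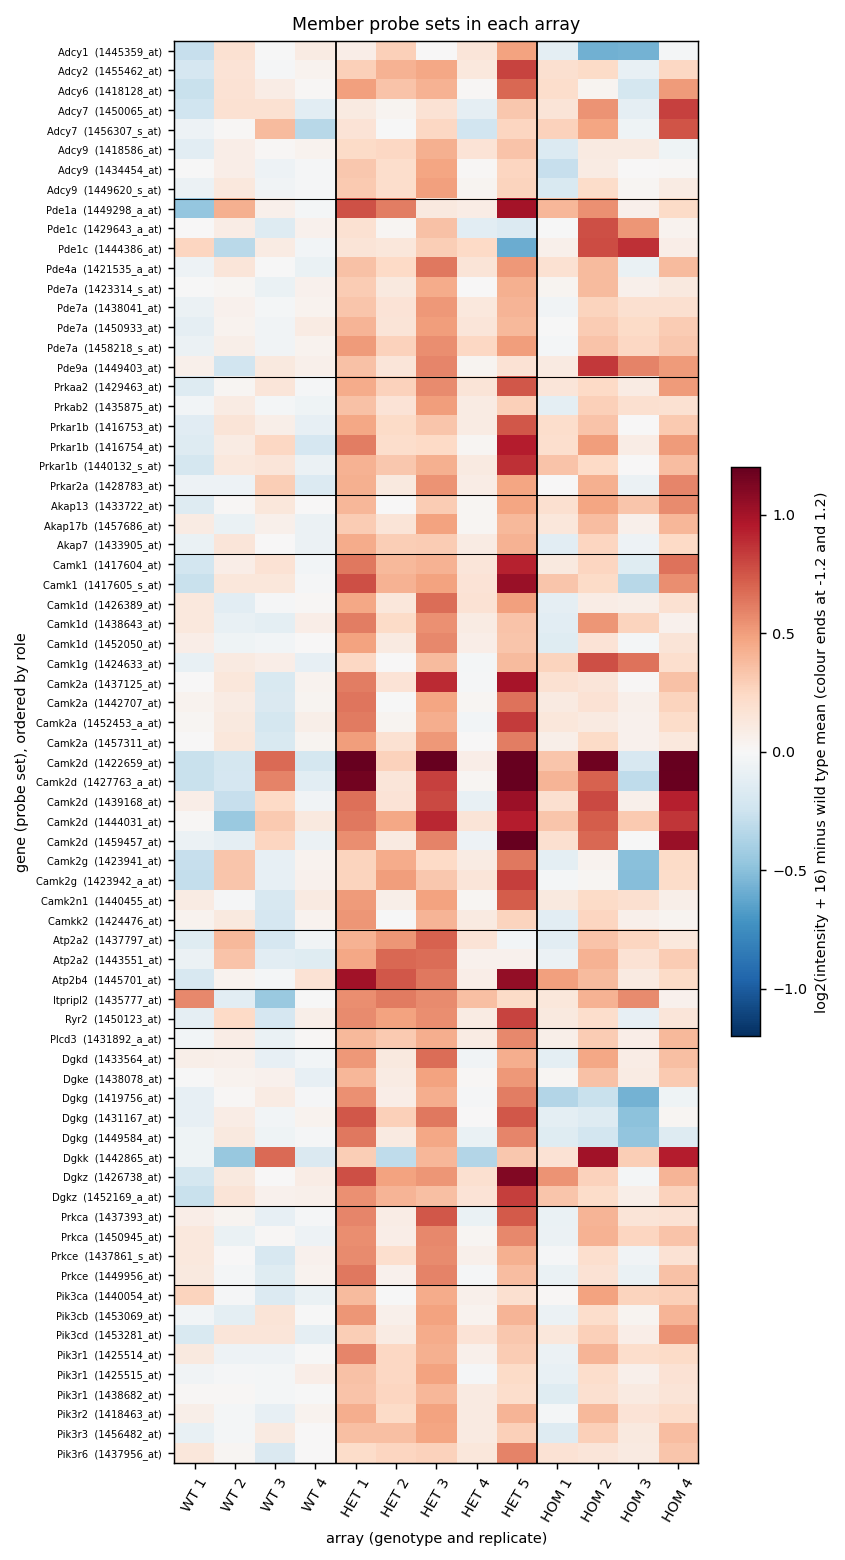
Each row is 1 of 72 member probe sets, ordered by role, and each column 1 of the 13 arrays. Colour gives log2(intensity + 16) minus the mean of the wild type arrays, red above and blue below, with colours ending at -1.2 and 1.2. Heterozygous arrays 1, 3 and 5 are red over most rows, and the 3 Dgkg rows and Adcy1 are blue in homozygous array 3.

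The calcium/calmodulin-dependent kinases were the largest group, with 19 probe sets of 8 genes and a median of 0.39 for heterozygous and 0.17 for homozygous against wild type (0.21 and 0.05 after quantile normalization). All 5 probe sets of Camk2d, the delta subunit of CaMKII, differed from wild type in the same direction, by 0.49 to 1.0 in heterozygous and 0.48 to 0.73 in homozygous arrays. For 1422659_at the intensities were 173, 180.3, 349 and 181 in wild type, 689, 260.3, 547, 224 and 721 in heterozygous and 270.5, 495, 184 and 671 in homozygous arrays. Low values occurred in every genotype, and the highest were heterozygous arrays 1, 3 and 5 and homozygous arrays 2 and 4. The spread within the mutant groups (SD 234 and 221) was of the size of the difference between means (221, 489 and 405). For 1444031_at, the probe set with the smallest p, the difference was 0.56 ± 0.17 for homozygous (limma adjusted p = 0.909) and 0.62 ± 0.17 for heterozygous against wild type (limma adjusted p = 0.287). The authors' deposited table gives it folds of 1.81 and 1.91.

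Baiap3 and Dlk1, 2 genes picked after their values were seen, had a summed intensity of 341 to 652 in wild type, 341 to 786 in heterozygous and 592 to 1249 in homozygous arrays. In wild type arrays 1 to 4 the sum was 511, 341, 652 and 344. It was 577, 341, 786, 342 and 504 in heterozygous arrays 1 to 5 and 592, 1249, 669 and 882 in homozygous arrays 1 to 4. The order of the sums matched that of Camk2d 1422659_at only in part. Wild type array 3 was the highest of its group in both and heterozygous arrays 2 and 4 the lowest of theirs, but heterozygous array 5 had the highest Camk2d and a middle sum, wild type array 1 the lowest Camk2d of its group and the second highest sum, and the highest homozygous value was array 4 for Camk2d and array 2 for the sum. The part of these genes in the Camk2d values was not tested.

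Camk2g, the gamma subunit, had 1023, 1586, 1170.4 and 1297 in wild type, 1506, 1784, 1575, 1387 and 2238 in heterozygous and 1233, 1275, 873 and 1466 in homozygous arrays (1423942_a_at). Homozygous array 3 was the lowest and heterozygous array 5 the highest, and the groups overlapped. Homozygous arrays differed from heterozygous ones by -0.49 ± 0.15 (limma adjusted p = 1) and from wild type by -0.07 ± 0.16, or by -0.40 and -0.19 after quantile normalization. The other probe set differed by -0.09 from wild type, and by 0.05 without homozygous array 3. Camk2a, the alpha subunit and a main protein of the postsynaptic density, was taken up after its values were seen. Its 4 probe sets differed by 0.36 to 0.53 for heterozygous and 0.12 to 0.17 for homozygous against wild type, or 0.16 to 0.34 and 0.02 to 0.05 after quantile normalization. For 1457311_at the heterozygous values were 6089, 4860, 6145, 4320 and 6586, the wild type ones 3788 to 4729 and the homozygous ones 4444 to 5023.

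Camk1g, a CaM kinase anchored to membranes, had its highest mean in the homozygous arrays. It had 396, 456, 447 and 395 in wild type, 506, 423, 554, 415 and 555 in heterozygous and 511, 734, 675 and 489 in homozygous arrays. All homozygous values lay above all wild type ones, and heterozygous values spanned both. The difference was 0.48 ± 0.14 from wild type (limma adjusted p = 0.909) and 0.28 from heterozygous arrays, or 0.18 without homozygous array 2. Its relative Camk1d, with 3 probe sets, differed by 0.32 to 0.39 for heterozygous and by 0.04 to 0.18 for homozygous against wild type. Heterozygous and wild type arrays did not overlap for 2 of the 3, as for 27.6% of the other rows. For these 2 Camk1d probe sets the gaps were narrow, 669.53 against 663.39 (1426389_at) and 1243.35 against 1242.2 (1452050_at). After quantile normalization the homozygous differences were -0.08 to 0.07.

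Of the calcium pumps and channels, Atp2b4, a plasma membrane pump that expels calcium, was the member with the smallest p for heterozygous against wild type. Its intensities were 214, 255, 245 and 282 in wild type, 514, 428, 394, 263 and 534 in heterozygous and 355, 327, 268 and 294 in homozygous arrays. Heterozygous array 4 lay within the wild type range and the other 4 above every other array. The difference was 0.71 ± 0.16 (limma adjusted p = 0.287), or 0.86 without heterozygous array 4, and it was 0.30 for homozygous against wild type. After quantile normalization these were 0.55 for heterozygous and 0.21 for homozygous. Ryr2, a ryanodine receptor that releases stored calcium, had 838, 1067, 784 and 945 in wild type, 1341, 1266, 1335, 969.5 and 1598 in heterozygous and 979, 1047, 842 and 997 in homozygous arrays. Heterozygous arrays 1, 2, 3 and 5 again lay above all others. It differed by 0.50 ± 0.13 from wild type (limma adjusted p = 0.287) and homozygous arrays by 0.09, which became 0.31 and -0.03 after quantile normalization. Atp2a2, the pump that refills the stores, differed by 0.36 and 0.39 in its 2 probe sets for heterozygous against wild type (0.18 and 0.30 after quantile normalization).

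Diacylglycerol kinases held the members that separated homozygous from heterozygous arrays with the smallest p. Dgkg, the gamma kinase, which calcium activates, was represented by 3 probe sets that did not differ in sign in any pair. For 1449584_at the intensities were 623, 703, 626 and 640.3 in wild type, 1009, 699, 896, 611 and 978 in heterozygous and 585, 551, 462 and 579.6 in homozygous arrays. Every homozygous value lay below every value of both other groups, while heterozygous arrays 2 and 4 lay close to wild type and 1, 3 and 5 above it. For 1419756_at they were 180.2, 196, 209 and 192 in wild type, 291, 205, 268, 192 and 305 in heterozygous and 149, 159, 126 and 187 in homozygous arrays. For 1431167_at homozygous values (297 to 433) reached into the range of heterozygous array 4 (426).

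Against the heterozygotes the 3 Dgkg probe sets differed by -0.64 ± 0.14, -0.67 ± 0.15 and -0.59 ± 0.14 log2 (1419756_at, 1431167_at and 1449584_at, limma adjusted p = 0.413, 0.413 and 0.621). Against wild type, homozygous arrays differed by -0.31, -0.18 and -0.25 (limma adjusted p = 0.909 for each), and the second became -0.08 without homozygous array 3. Heterozygous arrays differed from wild type by 0.33, 0.48 and 0.34. After quantile normalization the homozygous to heterozygous differences were -0.60, -0.60 and -0.51, the homozygous to wild type ones -0.41, -0.30 and -0.37 and the heterozygous to wild type ones 0.20, 0.30 and 0.14. The summed cortical markers were 2393, 7070, 4830 and 6253 in wild type arrays 1 to 4, 11147, 10540, 7819.9, 7011 and 14517 in heterozygous arrays 1 to 5 and 7437, 4496, 3061 and 7696 in homozygous arrays 1 to 4. Homozygous array 3 was the lowest of its group in both the sum and Dgkg. Homozygous arrays 1 and 4 had higher sums than heterozygous array 4 and lower Dgkg, and wild type array 1, with the lowest sum of all, had Dgkg above every homozygous array (1449584_at). The part of these markers in the Dgkg values was not tested.

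Dgkz, the zeta kinase, did not overlap between heterozygous (1609, 1313, 1355, 1069 and 2042) and wild type arrays (803, 1014, 941 and 998) for 1426738_at. The same lack of overlap was found for 27.6% of the other rows. The 2 Dgkz probe sets differed by 0.62 ± 0.15 and 0.46 ± 0.12 for heterozygous against wild type (limma adjusted p = 0.287 for both). Homozygous arrays differed from wild type by 0.30 and 0.23. After quantile normalization the differences were 0.42 and 0.30 for heterozygous and 0.18 and 0.13 for homozygous. Dgkk, the kappa kinase, had 64.2, 44.9, 117 and 57.8 in wild type, 86.3, 51.2, 94.1, 49.3 and 88.1 in heterozygous and 78.0, 151, 86.3 and 144 in homozygous arrays. Homozygous arrays 2 and 4 and wild type array 3 were the highest. Homozygous arrays 2 and 4 also had the highest sums of Baiap3 and Dlk1, while heterozygous array 3 and homozygous array 3 had higher sums than wild type array 3 and lower Dgkk. The part of that sum was not tested. Homozygous arrays differed by 0.60 ± 0.22 from wild type (limma adjusted p = 0.909) and by 0.53 ± 0.21 from heterozygous arrays (limma adjusted p = 1). Dgkd and Dgke differed by 0.34 and 0.30 for heterozygous against wild type and by 0.20 each for homozygous.

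**Figure D3:**
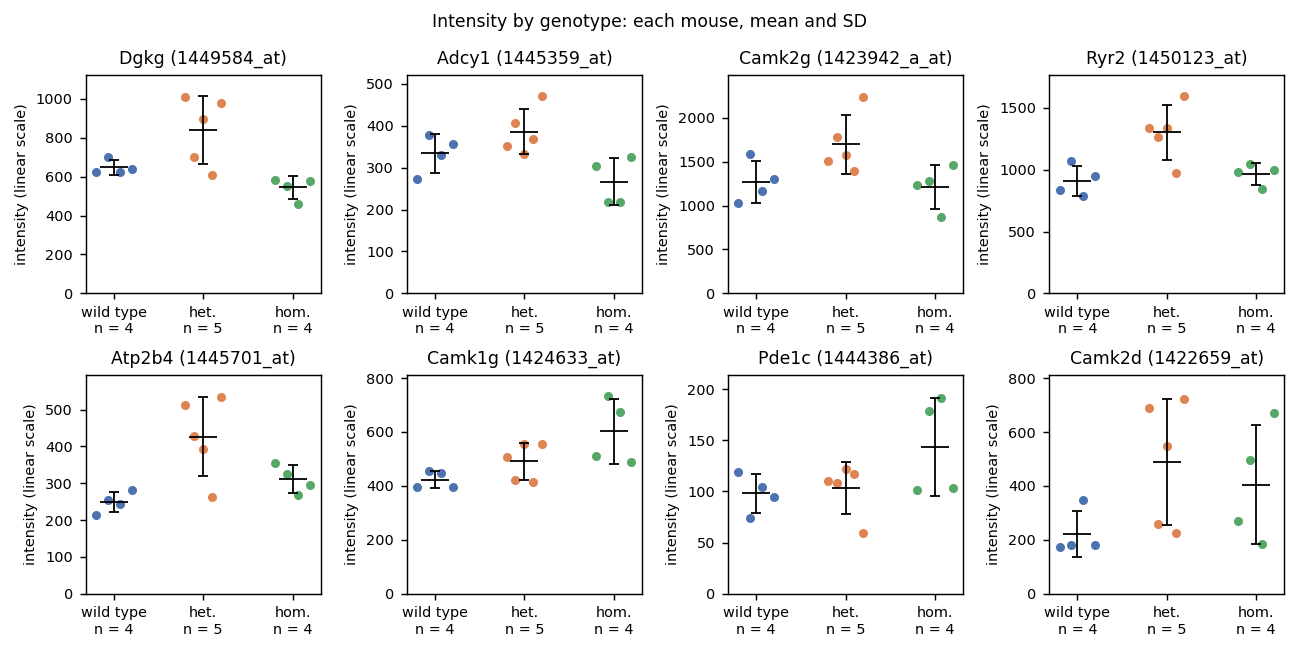
Intensity on the linear scale of 8 member probe sets in each mouse (points), with the mean and SD of each genotype (n = 4, 5 and 4). Dgkg and Adcy1 separate homozygous from heterozygous mice, Camk1g separates homozygous from wild type mice, and Camk2d spreads widely within both mutant groups.

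Protein kinase C, the main effector of diacylglycerol, had 6 probe sets of 3 genes and a median of 0.39 for heterozygous and 0.20 for homozygous against wild type (0.22 and 0.09 after quantile normalization). Prkca, the alpha form, had 1408, 1367, 1240.2 and 1322 in wild type, 2007, 1422, 2244, 1264 and 2227 in heterozygous and 1264, 1770.3, 1490.3 and 1502 in homozygous arrays (1437393_at), so that heterozygous arrays 1, 3 and 5 stood apart from the rest. Prkce, the epsilon form, differed by 0.36 and 0.33 for heterozygous against wild type and by 0.08 and 0.09 for homozygous. After quantile normalization these were 0.18 and 0.13, and -0.03 for both homozygous differences.

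Phosphoinositide 3-kinase subunits, which make a membrane lipid signal, had 9 probe sets of 7 genes that differed by 0.21 to 0.33 for heterozygous and by 0.08 to 0.26 for homozygous against wild type. Their medians were 0.30 and 0.18, or 0.14 and 0.06 after quantile normalization. Pik3r1, a regulatory subunit, had 1122, 1125, 1094 and 1113 in wild type, 1417, 1336, 1474, 1202 and 1290.1 in heterozygous and 1006, 1275, 1204 and 1242 in homozygous arrays (1438682_at). Wild type values lay close together and below every heterozygous value, and homozygous array 1 was the lowest of all. The difference was 0.26 ± 0.11 for heterozygous (limma adjusted p = 0.411) and 0.08 for homozygous against wild type, or 0.07 and -0.04 after quantile normalization. Pik3cd, the catalytic delta subunit, differed by 0.26 in both, and Pik3r3, another regulatory subunit, by 0.32 and 0.16. Plcd3, the 1 listed phospholipase C, differed by 0.36 ± 0.12 for heterozygous (limma adjusted p = 0.334) and by 0.21 for homozygous against wild type. Heterozygous and wild type arrays did not overlap, but by a narrow gap, 78.51 against 78.19. The same lack of overlap was found for 27.6% of the other rows.

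**Figure D4:**
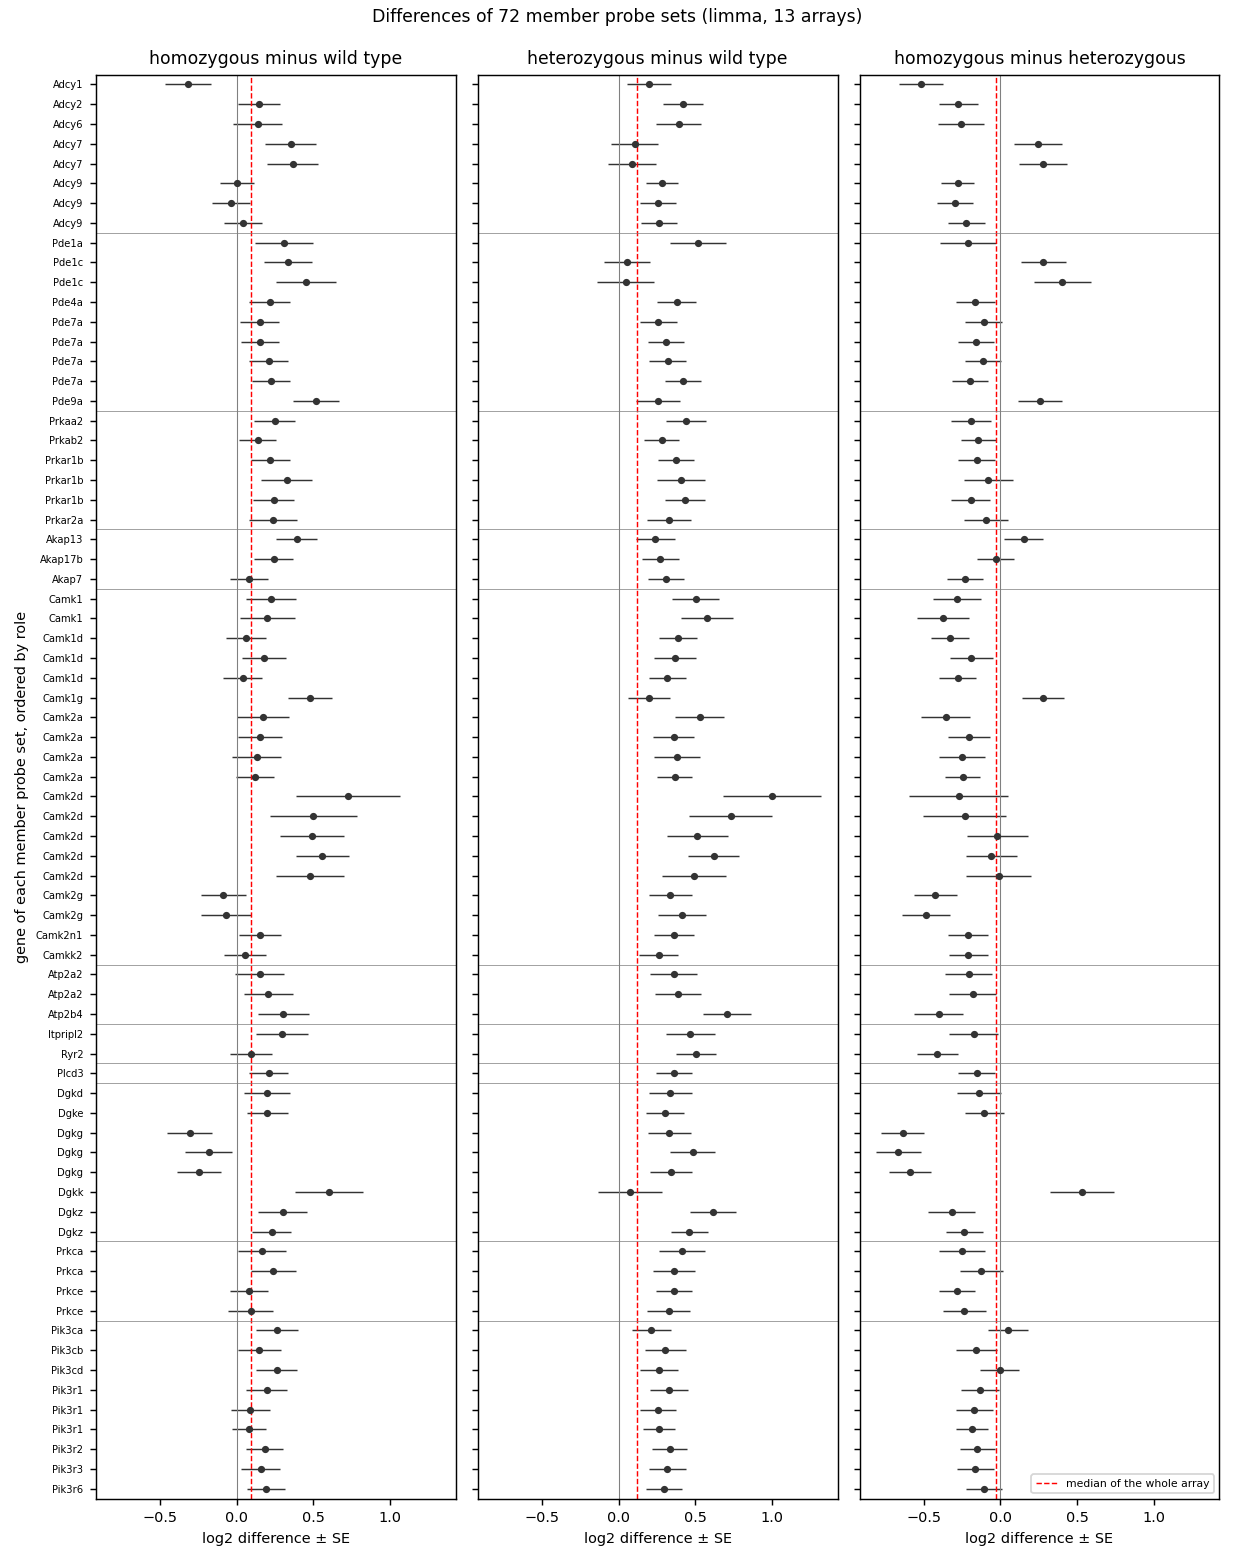
Log2 difference with its SE (limma, 13 arrays) of each of 72 member probe sets for the 3 pairs of genotypes, ordered by role, with the median of the whole array as a dashed line. Every heterozygous minus wild type difference lies above 0, and 9 of the 72 homozygous minus heterozygous differences do.

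Other genes of these pathways that are no members were counted from lists of receptors, G proteins, calcium sensors and lipid enzymes. Of 36 cAMP and dopamine signalling genes 9 were listed (13 probe sets), of 36 calcium signalling genes 9 (15 probe sets) and of 32 phosphoinositide and diacylglycerol genes 13 (23 probe sets). None of these probe sets passed the array-wide limma test in any pair. Their median differences for heterozygous against wild type were 0.31, 0.32 and 0.33, and for homozygous against wild type 0.14, 0.13 and 0.15. After quantile normalization these were 0.14, 0.17 and 0.17, and 0.05, 0.01 and 0.05. At an unadjusted p under 0.05, 12, 14 and 22 of them were higher in heterozygous than in wild type arrays (83.7% of the table rows that are no members were), and 1 of the cAMP and dopamine list was lower (-0.35). For homozygous against wild type 0, 1 and 1 were higher (20.8% of those rows) and 0 lower. After quantile normalization 5, 1 and 8 had an unadjusted p under 0.05 for heterozygous against wild type (32.5% of those rows). For homozygous against heterozygous the medians were -0.18, -0.20 and -0.18, with 5 of each list lower (14.3% of those rows) and 1 of the cAMP and dopamine list higher at an unadjusted p under 0.05.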

How the data were processed

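Striatal RNA was measured on Affymetrix arrays, 1 per mouse, with groups taken from the sample labels. The authors deposited PLIER intensities on a linear scale (the tool per the submitters' processing notes, without a version), as a table of 45101 probe sets and as a selection of 4423 with the authors' deposited fold changes, raw p-values and adjusted p-values (per the file headers). Precision is limited by the number of arrays.

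Intensities became log2(intensity + 16), so dim probe sets differ by less than their true fold. Limma 3.58.1 in R 4.3.3 used all 13 arrays and 45101 probe sets, 64 controls included, with genotype alone (lmFit, eBayes with trend, two-sided) and Benjamini-Hochberg over every probe set at 0.05. The script was tested on simulated data. Ptpn5 was compared by exact permutation. Replicate numbers in the titles were not used to pair samples. Deviations correlated above 0.1 in 2 of 12 same-numbered and 16 of 44 other-numbered pairs of arrays. Such correlations cannot show that pairing is absent.

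The members and lists were chosen with earlier results of these data known. Named were the 5 members per direction and pair with the smallest p (up to 10 where many pass). From each of 11 role groups the rule also took the 2 genes with the smallest p for homozygous against heterozygous and the 1 for homozygous against wild type, and it took genes whose probe sets disagree in sign. Camk2a, Pde4a, Pde7a, Dgkd, Dgke and further probe sets of named genes were added after their values were seen. All 45 genes matched RefSeq (GRCm38.p6) by Entrez ID, which gave names, chromosomes, gene order and promoters. Alternatives changed the offset (1 or 32), the filter on dim probe sets, the normalization between arrays (quantiles or medians), the replicate block, the groups in the fit, the trend, array weights, and which arrays or control probe sets were kept. Unlisted genes of these families were not analysed here. Results of 1 further member gene are not reported here, though its 2 probe sets enter the counts and medians.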

Additional observations from a re-analysis of the deposited data

Results flagged for a closer look

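Pde1c (1444386_at) had an intensity of 58.97 in heterozygous array 5, far below the other 4 heterozygous arrays, which lay between 107.89 and 122.27. It was the only such value among 105 groups of values checked, and chance alone marks about 1 group in 20. The groups checked were those of the 35 probe sets named by the selection rule, not those of all members. Camk2d 1422659_at, which was not checked, had 349.34 in wild type array 3 and 173.36 to 180.88 in the other wild type arrays. Camk2d 1427763_a_at, also not checked, had 224.91 in that array and 116.61 to 129.59 in the others.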

How the results depend on the processing

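Counts of members past an adjusted p of 0.05 were 0 in every alternative except 20 (homozygous against wild type) and 25 (homozygous against heterozygous) with array weights estimated with the genotypes and 8 (heterozygous against wild type) without heterozygous array 4. Shares of members beside those of the other table rows are given in brackets. Those weights also gave 25 and 42 members at an unadjusted p under 0.05 (33.8% against 45.1%, 56.8% against 48.4%), and 8390, 4 and 5698 probe sets of the array for homozygous and heterozygous against wild type and homozygous against heterozygous. Weights without the genotypes, a choice made after seeing the data as were the pairs of arrays left out, gave 6 and 5 for the last 2 pairs and 36 members for heterozygous against wild type (48.6% against 52.8%). Members at an unadjusted p under 0.05 for homozygous against wild type numbered 7 among brighter probe sets only (11.9% against 17.2%), 10 after median centring (13.5% against 15.9%) and 8 without homozygous arrays 1 and 2 (10.8% against 17.9%), down from 16 (21.6% against 22.1%). For heterozygous against wild type they numbered 24 after quantile normalization (median 0.195, 32.4% against 32.5%), 40 after median centring (54.1% against 50%), 33 with the replicate block (44.6% against 41.0%) and 27 without heterozygous arrays 1 and 3 (36.5% against 26.3%), down from 63 (85.1% against 84.3%). For homozygous against heterozygous they numbered 9 with the replicate block (12.2% against 8.48%) and 12 without homozygous arrays 1 and 2 (16.2% against 11.6%), down from 20 (27.0% against 16.2%). Probe sets of the whole array that passed numbered 17, 6 and 12 with the replicate block, 18 and 12 for the pairs with homozygous arrays when only the 2 groups entered, 2 and 0 against wild type among brighter probe sets, and 0 for homozygous against heterozygous without heterozygous arrays 1 and 3. The cause of these shifts was not tested. Leaving out 1 array at a time gave 5 (without homozygous 2) to 25 (without homozygous 1), 45 to 66 and 12 to 31 members at an unadjusted p under 0.05 (other rows 8.23% to 43.2%, 51.3% to 87.8% and 9.01% to 26.9%), 0 to 8 members past the adjusted p for heterozygous against wild type, and 3 to 12, 1 to 213 and 0 to 7 probe sets of the array. The 3 medians kept their sign in every alternative. Single differences, not all of them near 0, turned sign, with the cause not tested. After quantile normalization 11 members turned for homozygous against wild type, none over 0.0928 in size, and 3 in each other pair. Among the 11 were probe sets of Adcy9, Akap7, Camk1d, Camkk2, Pik3r1, Prkce and Ryr2. For homozygous against wild type, Adcy9 1418586_at was -0.117 after quantile normalization, -0.0905 after centring and -0.0419 to 0.0553 with 1 array left out. Adcy9 1449620_s_at was -0.0779, -0.0517 and -0.0189 to 0.115 likewise. Adcy9 1434454_at was 0.00226 with genotype weights, 0.00683 without homozygous arrays 1 and 2 and -0.0876 to 0.0384 with 1 array left out, and Camk2g 1423941_at was -0.192 to 0.0501. For homozygous against heterozygous, Itpripl2 was -0.175 in the main fit and 0.0329 with genotype weights. Prkca 1437393_at was -0.251 in the main fit and 0.00603 with weights without the genotypes. Whether the replicate numbers pair the mice is not known, so the block is no test of pairing. The deposited selection under its own headings was not run, since it holds the same intensities rounded. Dim probe sets, such as Camk2d 1444031_at, limit what a fold can show.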
